A study of Homo sapiens with 8 samples.

Results

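Among the accessible regions of HUDEP-2 cells, 578 lay over 1 kb from every annotated start site and held a peak in each of the 2 SCF libraries but none in PBS. They were 578 of 25888 distal regions (2.23%), of 43569 regions in all, and 719 regions were called with SCF only before the distance limit was applied. The members were chosen by the peak calls themselves. Peaks of the 4 sgControl lists that shared 1 bp were merged, the summit of the best-ranked peak stood for the region, and distance was taken to the nearest transcript start of GENCODE release 44 on GRCh37. Their presence with SCF and absence with PBS is therefore the definition of the set and not a finding.

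HUDEP-2 is an immortalized human erythroid precursor line that needs Kit signaling to survive and proliferate. All groups were lentivirally transduced for CRISPR interference, which silences a locus through a guide RNA and a dead Cas9 fused to the KRAB repressor. The sgControl cells analyzed here carried a scrambled guide. They were kept without growth factors for 5 h, and for the next 1 h in PBS or in SCF at 50 ng/ml, with 2 libraries of 50000 cells per treatment, described as biological duplicates. Samples with the sgEGR1 guide were not analyzed here. The assay was ATAC-seq, in which the Tn5 transposase cuts open chromatin. A two-sided exact permutation test of 2 against 2 libraries cannot give a p under 0.333. The erythroid identity was visible at 8 of 9 erythroid marker genes with a start site within 1 kb of a region called in all 4 libraries, the exception being ALAS2, whose start lay 2233 bp away. The count was 0 of 3 for T cell genes and 0 of 3 for liver genes, but 2 of 3 for monocyte genes (CD14 and CSF1R).

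SCF binds the Kit receptor tyrosine kinase on hematopoietic progenitors and mast cells and starts the RAS-MAPK and PI3K cascades. MAPK activity induces immediate early transcription factors within the hour, among them FOS and JUN proteins, which pair as AP-1, and EGR1. In erythroid precursors many distal elements are occupied by GATA1, some of them with TAL1 or KLF1. Such elements are often accessible before a stimulus arrives. A region called in all 4 libraries is termed constantly open below.

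The sequences shown first are those of members with a high mean rank that hold an AP-1 word, or an AP-1 and a GATA word, read from GRCh37 on the forward strand over 100 bp on each side of the summit. Capitals mark AP-1 words (TGANTCA) and GATA words (AGATAA or TGATAA) on either strand. The first 4 sequences were selected on holding an AP-1 word, and the RNF144B and CELF4 members hold GATA words too. The members are named after the nearest protein-coding gene, which need not be their target.
RNF144B member, chr6:18585400-18585600: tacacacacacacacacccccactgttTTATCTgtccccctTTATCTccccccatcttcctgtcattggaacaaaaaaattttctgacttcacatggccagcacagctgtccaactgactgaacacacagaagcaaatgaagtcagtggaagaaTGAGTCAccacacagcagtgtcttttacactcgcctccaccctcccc
TMEM245 member, chr9:111798277-111798477: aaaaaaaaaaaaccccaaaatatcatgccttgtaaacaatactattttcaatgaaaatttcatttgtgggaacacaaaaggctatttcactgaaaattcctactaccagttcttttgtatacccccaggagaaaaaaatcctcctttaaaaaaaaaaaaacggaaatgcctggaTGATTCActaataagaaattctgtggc
NPTN member, chr15:73856752-73856952: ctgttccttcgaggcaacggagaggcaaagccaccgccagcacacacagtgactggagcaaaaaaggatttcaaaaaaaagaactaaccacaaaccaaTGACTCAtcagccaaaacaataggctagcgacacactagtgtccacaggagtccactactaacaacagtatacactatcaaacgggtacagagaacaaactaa
CELF4 member, chr18:36030916-36031116: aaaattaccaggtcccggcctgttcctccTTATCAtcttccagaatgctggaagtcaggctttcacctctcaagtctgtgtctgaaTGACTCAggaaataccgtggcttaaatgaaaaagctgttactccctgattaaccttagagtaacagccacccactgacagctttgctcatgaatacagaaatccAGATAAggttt
The 2 members of highest mean rank with neither word are shown for contrast.
JAZF1 member, chr7:28101967-28102167: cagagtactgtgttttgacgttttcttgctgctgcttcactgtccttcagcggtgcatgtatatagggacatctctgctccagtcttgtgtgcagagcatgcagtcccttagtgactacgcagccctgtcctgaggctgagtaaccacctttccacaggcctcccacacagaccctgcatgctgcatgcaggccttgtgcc
TYW1B member, chr7:72255379-72255579: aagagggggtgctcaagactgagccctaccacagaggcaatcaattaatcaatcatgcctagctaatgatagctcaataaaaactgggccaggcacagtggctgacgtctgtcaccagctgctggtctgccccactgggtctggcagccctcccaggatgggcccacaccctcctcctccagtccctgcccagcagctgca
Members near RHAG and LMO2, genes of the red cell, are shown because one holds an AP-1 and the other a GATA word. These were picked after their values were seen.
RHAG member, chr6:49575138-49575338: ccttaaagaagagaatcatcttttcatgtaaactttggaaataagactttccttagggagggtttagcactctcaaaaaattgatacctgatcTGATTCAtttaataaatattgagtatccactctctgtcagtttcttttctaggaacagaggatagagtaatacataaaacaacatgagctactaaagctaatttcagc
LMO2 member, chr11:33920645-33920845: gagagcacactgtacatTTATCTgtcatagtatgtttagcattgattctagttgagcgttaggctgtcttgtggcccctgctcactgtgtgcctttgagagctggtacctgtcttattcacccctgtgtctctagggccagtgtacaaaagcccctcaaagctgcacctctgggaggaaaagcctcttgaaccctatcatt
The centre of the AP-1 word lay 4 bp from the summit at RHAG and 1 bp at NPTN, 57 bp away at RNF144B and 77 bp away at TMEM245.

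The members were weak peaks. At its summit a member held 6 to 42 fragments in SCF replicate 1 (median 10) and 5 to 46 in SCF replicate 2 (median 9), whereas the median peak of those libraries held 23 and 20. These fragment counts were recovered from each peak's fold enrichment and p-value and came out whole for every peak that could be tested. Fold enrichment over the local background had a median of 5.03 and 4.77. As a percentile rank of fold enrichment within its own list, from 0 for the weakest peak to 100 for the strongest, the members had medians of 22.2 (0.0854 to 72.3) and 24.3 (0.162 to 80.8). Only 9 of 578 were above rank 50 in both SCF libraries, and 215 were under rank 25 in both. Both pileups reached 10 fragments at 213 members and 20 fragments at 20. A −log10 q of at least 5 in both libraries was found for 119 members.

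**Figure D1:**
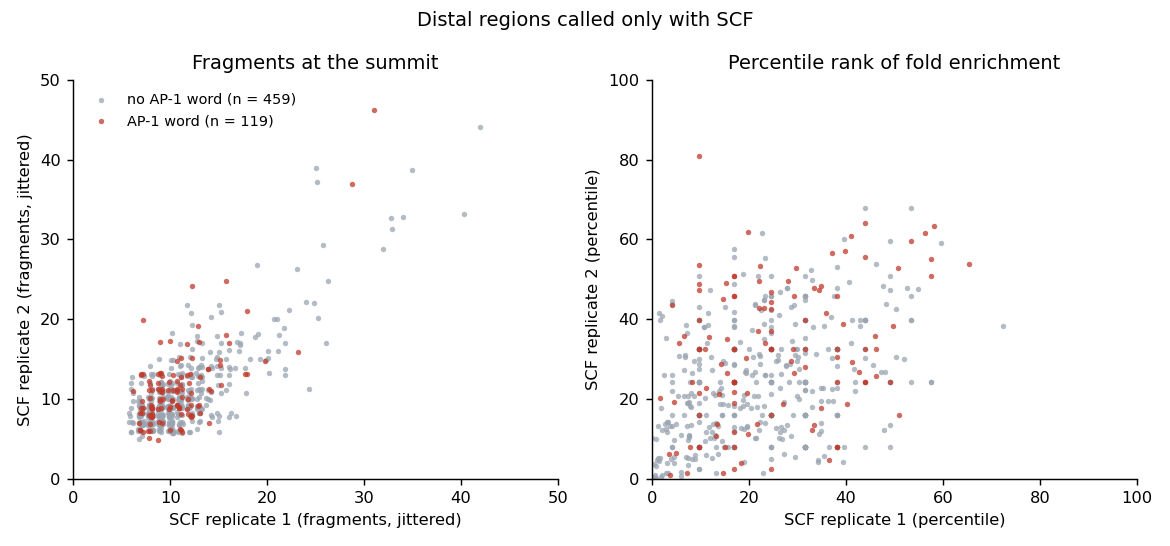
Each point is 1 of the 578 members; the left panel gives fragments at the summit and the right panel the percentile rank of fold enrichment in SCF replicate 1 (x axis) and SCF replicate 2 (y axis), with members holding an AP-1 word in red. Most points lie near the medians of 10 and 9 fragments, and 9 members exceed rank 50 in both libraries.

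The level at which a PBS peak could be called bears on this. The weakest peak listed held 6 and 7 fragments with PBS and 6 and 5 with SCF (replicates 1 and 2). The lowest background of each list, divided by its shortest peak width, was taken as a measure that scales with depth. It put the depth of PBS replicate 2 at 1.42 times that of PBS replicate 1, and the SCF libraries at 0.883 and 0.843 times. In SCF replicate 2, 54 members were called with fewer fragments than the weakest peak of PBS replicate 2. Such low peaks were not confined to the members, since the 5th percentile of all SCF replicate 2 peaks was 6 fragments. A region under the threshold has no value in a peak list, so the PBS signal at the members is not known. It cannot be said to be 0. Across members the ranks of both SCF libraries followed each other loosely (Spearman rank correlation 0.333 over 578 regions, which share their libraries and were all required to be called in both). The 2 SCF summits of a member lay within 50 bp of each other at 210 members, and the median separation was 85.0 bp.

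How often any pair of libraries shares such calls was read from the other pairs. The 2.23% of distal regions called in both SCF libraries only stood beside 3.04% (786 regions) for both PBS libraries, 1.16% (300) for both replicate 1 libraries and 4.52% (1170) for both replicate 2 libraries. The mixed pairs gave 2.40% (622, PBS replicate 1 with SCF replicate 2) and 2.24% (581, PBS replicate 2 with SCF replicate 1). On the lists as deposited the number of members was thus within the range of the pairs that mix the treatments. With 29269 peaks kept per library the SCF pair gave 645 regions and the PBS pair 667, above the replicate 1 pair (458), the replicate 2 pair (621) and the mixed pairs (536 and 527). The order of the pairs therefore depended on the list lengths. Replicate numbers here are those of the labels, while the numbers inside the peak names would join PBS replicate 1 with SCF replicate 2. A further 9349 distal regions were called in exactly 1 library. The SCF pair was the shallowest by background and the PBS pair held the deepest library, and the part of depth in these counts was not tested.

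The member of highest mean rank (60.8), chr6:18585143-18585760, lay in an intron of the noncoding gene MIR548A1HG, 198 kb from RNF144B, a ubiquitin ligase gene, with 16 and 18 fragments and ranks of 58.2 and 63.3. The intronic JAZF1 member (chr7:28101915-28102218) held 14 and 16 fragments at ranks of 53.5 and 68.0. JAZF1 encodes a zinc finger cofactor. The highest rank of any member in SCF replicate 1 was found between genes, 15.2 kb upstream of TH, which encodes tyrosine hydroxylase of catecholamine synthesis (chr11:2207863-2208394). There the fragments numbered 24 and 11 at ranks of 72.3 and 38.4, so the 2 libraries differed in how strongly they showed it.

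The TMEM245 member (chr9:111798135-111798605) overlapped an exon 2.11 kb downstream of a start of that membrane protein gene, with 18 and 13 fragments. At TYW1B (chr7:72255282-72255671), a tRNA wybutosine synthesis gene, an intron held 17 and 14 fragments. TYW1B has a near-identical copy, TYW1, so the placement of reads there is uncertain. The NPTN member (chr15:73856693-73856987), in an intron of the neuroplastin gene, held 16 and 17 fragments. It was also the member closest to the distance limit, at 1019 bp from a start site, while the nearest SCF-only region on the other side lay 984 bp from a start of ENSG00000279342 (chr11:124663510-124663998) with 12 and 9 fragments.

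A PCDH7 member (a protocadherin gene 582 kb away) held 14 fragments in both SCF libraries. Close in rank were members 54.9 kb from AKIRIN2, a nuclear factor needed for proteasome import, with 15 fragments in both libraries, and 56.0 kb from XIAP, an inhibitor of caspases, with 15 and 12. GRM8, a glutamate receptor gene, had a member 1.15 kb upstream of a start with 12 and 16 fragments. TMEM241 had 13 and 14 fragments at an intronic member, and the member 885 kb from the RNA-binding protein gene CELF4 had 12 and 15. These 12 leading members lay near genes of unlike function. Of the 12, 7 held an AP-1 word in the window, against 20.6% of all members and 11.5% of all distal regions. Over all members the median ranks with and without the word were 22.2 and 22.3 in SCF replicate 1, and 32.6 and 24.3 in SCF replicate 2.

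The word search asked which transcription factor words the members held that the calling rule had not used. An AP-1 word within 100 bp of the summit was found at 119 members (20.6%, 95% Wilson interval 17.5 to 24.1). The share was 7.76% (6.09 to 9.84) in regions called in both PBS libraries only and 8.0% (5.43 to 11.6) in both replicate 1 libraries only. Both replicate 2 libraries gave 10.9% (9.20 to 12.8), and the mixed pairs 12.5% (10.2 to 15.4) and 11.7% (9.34 to 14.6). It was 12% (11.4 to 12.7) in distal constantly open regions and 11.5% in all distal regions. The lower bound of the members thus lay above the upper bound of each other pair. These intervals cover counting over regions only, and regions of 1 library are not replicates of a treatment.

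Over the libraries, 10.6% and 10.5% of distal PBS peaks and 13.2% and 12.9% of distal SCF peaks held an AP-1 word. The means were 10.5% ± 0.0626 and 13.0% ± 0.228 (SD, n = 2 each), with no overlap and a difference of 2.48 percentage points, and the two-sided exact permutation p was 0.333, the smallest these libraries allow. The members entered these shares. Distal regions called in a single library, which hold no member, gave 7.53% and 8.73% for the PBS libraries and 11.3% and 13.0% for the SCF libraries. The SCF minus PBS difference there was 4.02 percentage points (8.13% ± 0.849 against 12.1% ± 1.14, SD, n = 2 each, exact permutation p = 0.333). Of the regions called in 3 libraries, those missed by a PBS library held the word at 19.4% (PBS replicate 1 and both SCF libraries) and 15.4% (PBS replicate 2 and both SCF libraries). Those missed by an SCF library held it at 9.01% and 10.3%.

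**Figure D2:**
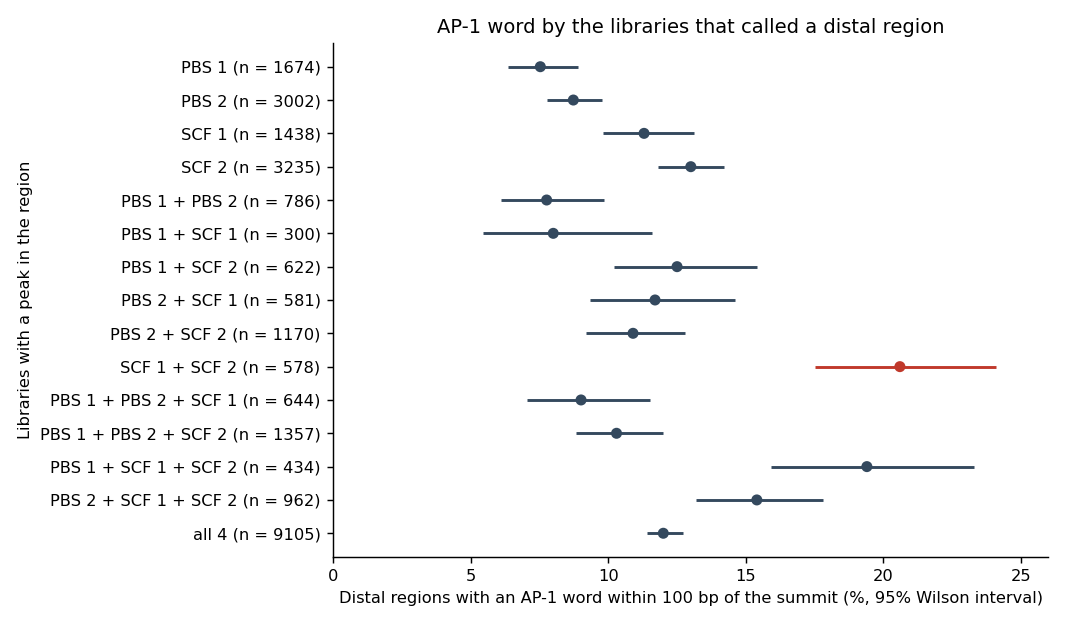
Share of distal regions with an AP-1 word within 100 bp of the summit (x axis, %, with 95% Wilson intervals) for each of the 15 sets of libraries that can call a region (y axis), the members in red. The members' 20.6% is the highest share, next to 19.4% where PBS replicate 1 joined both SCF libraries.

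The position of the AP-1 word was measured out to 250 bp from the summit. Within that distance, 34.8% of the members held a word against 17.7% to 25.9% of the 5 other pairs, and its median offset from the summit was 83.0 bp against 101 to 119. Within 50 bp the shares were 10.2% and 3.67% to 6.43%. At least 2 words were found at 2.25% (1.32 to 3.81) of the members and 0.333% to 1.45% of the other pairs, whose intervals all overlapped the members' interval. The AP-1 word preceded by TGC, the longer form that NF-E2 and small MAF proteins bind, occurred at 16 members (2.77%, 1.71 to 4.45). It was at 0.891% to 1.93% of the other pairs, with intervals that all overlapped that of the members, and at 1.24% of distal constantly open regions.

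The median GC content of the window was 46.3% for members with the word and 50.7% for members without it, so the AP-1 share was also read within classes of GC. Under 45% GC it was 27.9% (21.9 to 34.8) in the members and 7.59% in PBS-only regions. From 45% to under 55% it was 20.4% (15.5 to 26.2) and 9.70%. At 55% or more it was 13.4% (9.18 to 19.2) and 4.89%. In distal constantly open regions the shares were 15.0%, 14% and 7.46%. The mixed pairs came closer than the PBS pair. PBS replicate 1 with SCF replicate 2 gave 16.1% (12.1 to 21.2), 12% (8.45 to 16.8) and 7.09% (3.90 to 12.6), and PBS replicate 2 with SCF replicate 1 gave 12.9% (8.65 to 18.7), 12.4% (8.86 to 17.2) and 9.47% (5.91 to 14.8). The members' interval lay above those of both mixed pairs under 45% GC and overlapped them in the other classes.

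A GATA word was held by 178 members (30.8%, 27.2 to 34.7), fewer than the 43.3% of distal constantly open regions and the 36.4% of all distal regions. Other pairs ranged from 25.3% (both replicate 1 libraries) to 40.7% (both replicate 2 libraries), so the members were not set apart from them. The composite of the E-box letters CTG and a GATA word 7 or 8 bases further on, the layout bound by TAL1 with GATA1, was found at 3.46% of the members, 2.00% to 7.18% of the other pairs and 10.7% of distal constantly open regions. AP-1 and GATA words shared the window at 39 members (6.75%, 4.97 to 9.09), against 1.67% to 5.31% in the other pairs, 4.81% in all distal regions and 5.91% in distal constantly open regions, and the members' interval overlapped those of 3 of the 5 pairs. Neither word was present at 320 members (55.4%).

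For the remaining words the share of PBS-only regions lay within the members' interval. EGR words (GCGTGGG) occurred at 2.77% of the members and 2.04% of PBS-only regions. The values were 11.2% and 9.80% for ETS (CCGGAAG or CAGGAAG), 26.1% and 25.3% for KLF (CCNCNCCC), and 5.71% and 6.11% for STAT (TTCNNNGAA). RUNX (TGTGGTT) stood at 4.33% and 4.45%, CTCF at 4.67% and 3.82% and the serum response element at 1.38% and 1.27%. Some other sets lay outside the members' interval. KLF ran from 20.3% to 33.3% over the other pairs, on both sides of the members' 22.7 to 29.9. It was 31.7% in distal constantly open regions. CTCF was 3.50% to 6.67% in the other pairs, within the members' 3.23 to 6.71, but 2.58% in distal constantly open regions. For EGR, ETS and the serum response element, not every other pair lay within the members' interval. The cyclic AMP response element (TGACGTCA) was at 0 of 578 members, which allows a share of up to 0.519%, and at 0.275% of distal constantly open regions. Both strands were searched for every word and AP-1 words may lie inside longer words. A match is a description of letters, and the absence of a match says nothing about binding.

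**Figure D3:**
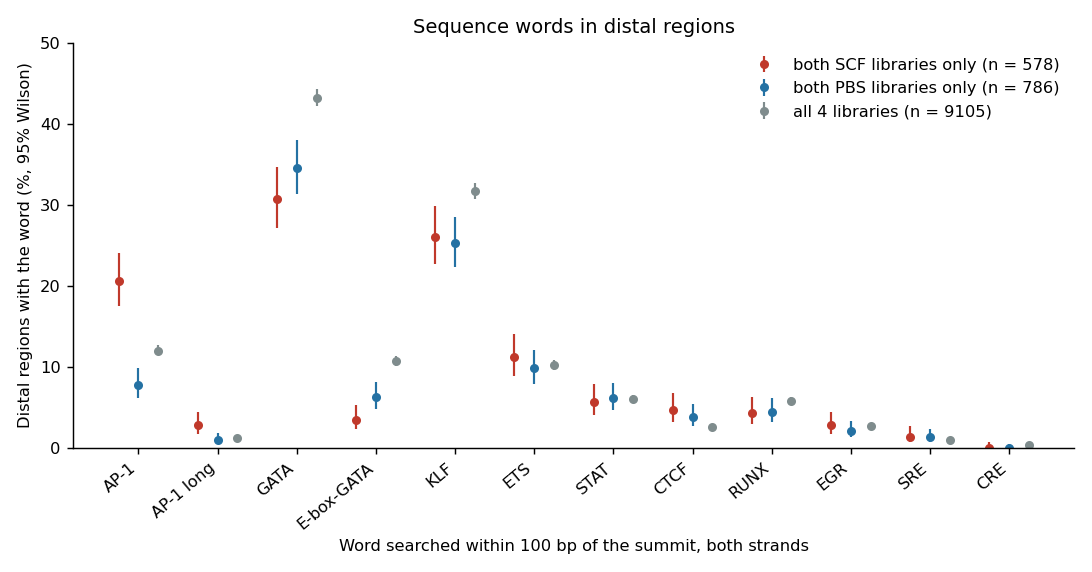
Share of distal regions (y axis, %, 95% Wilson intervals) with each of 12 words within 100 bp of the summit (x axis), for the members, the PBS-only regions and the distal regions called in all 4 libraries. AP-1 stands at 20.6% in the members and 7.76% in PBS-only regions, GATA at 30.8% and 34.6%.

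Pileup differed little between members with and without an AP-1 word, and rank differed in 1 library. The 119 with the word had median pileups of 10 and 11 fragments and the 459 without it 10 and 9. Their median ranks were 22.2 and 22.3 in SCF replicate 1 but 32.6 and 24.3 in SCF replicate 2. A GATA word was held by 32.8% of the former and 30.3% of the latter. The best-ranked members with both words, beside RNF144B and CELF4, lay at NEPRO, SNX25, VRK3 and LMO4. The NEPRO member (31.5 kb from this nucleolar protein gene, within NEPRO-AS1 and in an exon of ENSG00000241219) held 12 and 13 fragments. At SNX25, a sorting nexin gene, an intronic member held 11 fragments in both libraries with an AP-1 word centred on the summit. VRK3, a kinase family gene, had an intronic member with 2 AP-1 words and 13 and 19 fragments. The member 455 kb from LMO4, a LIM domain cofactor gene, held 7 and 20 fragments (ranks 9.79 and 80.8), and the latter rank was the highest of any member in SCF replicate 2.

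Closeness to constantly open chromatin was measured from the summit to the nearest edge of a region called in all 4 libraries. The median was 19.5 kb for the members and 18.4 kb for PBS-only regions. Among the other pairs it ran from 15.3 to 21.9 kb. Within 10 kb lay 187 members (32.4%, 28.7 to 36.3), against 34.9% of PBS-only regions, 34.0% and 30.4% for the replicate pairs and 29.1% and 40.6% for the mixed pairs. Members were thus neither closer nor farther than the range of the other pairs. Within 50 kb lay 77.7% of the members and 71.4% to 82.3% of the other pairs. The nearest constantly open region was at a start site for 54.5% of the members and 48.0% to 58.0% of the other pairs.

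**Figure D4:**
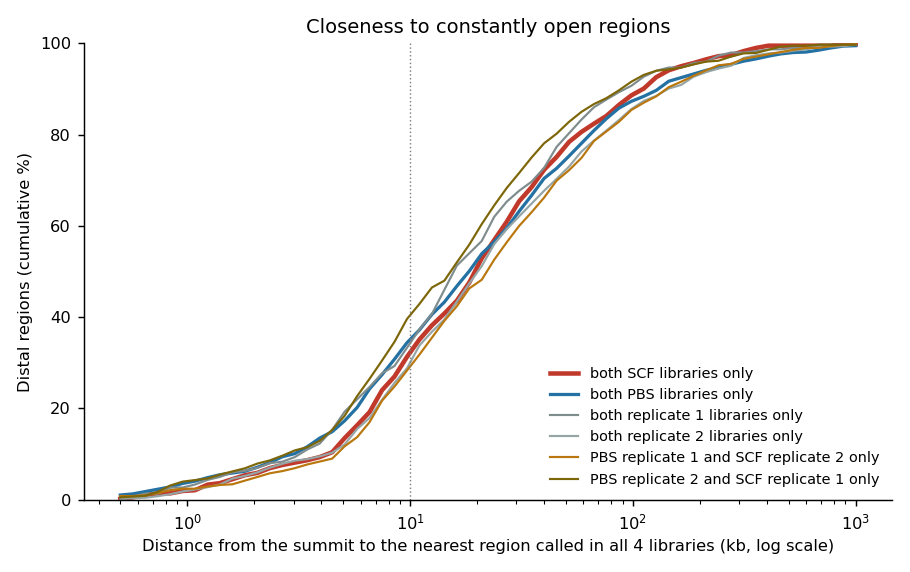
Cumulative share of distal regions (y axis, %) within a given distance of a region called in all 4 libraries (x axis, kb, log scale), for the members in red and the 5 other pairs. At the dotted line of 10 kb the members stand at 32.4%, between 29.1% and 40.6% for the mixed pairs.

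Pileup and rank were also read by that distance. The 34 members within 2 kb of a constantly open region had median pileups of 19.5 and 17.0 fragments but median ranks of 6.03 and 9.71, with a local background of 3.63 and 4.07 fragments. The 129 members over 50 kb away had 9 fragments in both libraries, ranks of 24.5 and 24.3 and a background of 0.944 and 0.885. The 153 members at 2 to 10 kb (11 fragments in both) and the 262 at 10 to 50 kb (10 and 9) lay between them. Members close to constantly open regions were thus high in fragments and low in rank, which is taken on fold enrichment over the local background. An AP-1 word was held by 14.7% (6.45 to 30.1) of those within 2 kb, 19.0% at 2 to 10 kb, 22.1% at 10 to 50 kb and 20.9% beyond.

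**Figure D5:**
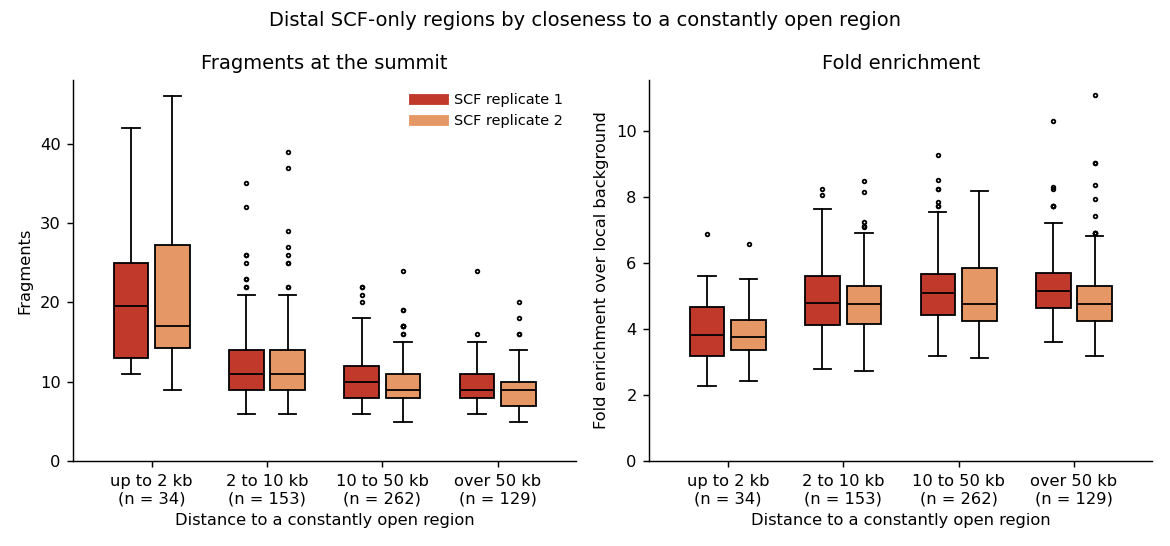
Fragments at the summit (left) and fold enrichment over the local background (right) of the members in both SCF libraries, by distance to a constantly open region; boxes give the quartiles, lines in them the medians, whiskers reach 1.5 times the box height and points lie beyond. Median pileups fall from 19.5 and 17.0 within 2 kb to 9 in both libraries over 50 kb, while fold enrichment is lowest within 2 kb.

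The 5 members closest to a constantly open region lay 0.475 to 0.601 kb from one. The closest was in an intron of CDH6, a cadherin gene (11 and 9 fragments), followed by SDS, a serine dehydratase gene next to SDSL (25 and 20). A member in an intron of the ribosomal protein gene RPS9, whose nearest protein-coding start was that of the leukocyte receptor gene LILRB3, held 42 and 44 fragments, the largest pileup in SCF replicate 1. PLXND1, a semaphorin receptor gene, and TENT4A, a poly(A) polymerase gene, made up the 5 with 19 and 18 and with 15 fragments in both. The PLXND1 member overlapped an exon, had fold enrichments of 2.79 and 2.59 and was one of the pair of lowest mean rank. The other was near NRTN, a neurotrophic factor gene, with 34 and 33 fragments at fold enrichments of 2.53 and 2.48. At the other extreme, the member nearest to TENM4 lay 1927 kb from any constantly open region with 8 and 13 fragments, and those near GRID1 (7 and 8) and NTM (10 and 8) lay 859 and 778 kb away.

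Whether the constantly open neighbours changed with SCF can be asked of values that the rule did not use. The 443 constantly open regions that were nearest to a member within 50 kb had median ranks of 61.9 and 64.7 with PBS, and 59.7 and 63.7 with SCF. The treatments overlapped, and the difference of the means was −1.55 (63.3 ± 1.99 with PBS and 61.7 ± 2.80 with SCF, SD, n = 2 each, two-sided exact permutation p = 0.667). Both SCF ranks exceeded both PBS ranks at 17.4% of these neighbours and lay below both at 17.2%. Over all 22355 constantly open regions the shares were 16.0% and 19.3%. The 186 neighbours within 10 kb differed by −1.74 (p = 1.00, exact permutation). The sign of the 50 kb difference turned when PBS replicate 2 or SCF replicate 1 was left out (0.580 and 2.12).

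In gene position, 338 members (58.5%) lay in introns, 188 (32.5%) between genes and 52 (9.0%) in exons. The other pairs ranged from 57.1% to 62.6% in introns, 31.4% to 35.7% between genes and 5.22% to 9.64% in exons. The median distance to a protein-coding start was 13.4 kb, and 284 members lay upstream of it. The gene of that start had a start site, of any of its transcripts, inside a constantly open region for 388 members (67.1%, 63.2 to 70.8). This compared with 69.1% to 71.7% of the other pairs and 73.5% of distal constantly open regions. The share was 80.4% for members 2 to 10 kb from a constantly open region and 47.3% for those over 50 kb away. The members were spread thinly, with 557 different nearest protein-coding genes, 21 genes that were nearest for 2 members and none for 3. Within 50 kb of another member lay 30 (5.19%), against 9.16% for PBS-only regions and 3.54% to 7.61% for the other pairs. Genes with 2 members included JARID2, a Polycomb cofactor gene with 47 distal regions in all, GSE1 (33) and SGMS1, a sphingomyelin synthase gene (16).

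Nearby genes were then grouped by function from lists covering Kit signaling, its feedback, immediate early genes and the red cell. A member counted when the gene was its nearest protein-coding gene within 100 kb. Across the 7 lists of pathways and lineages the count was 13 of 578 members. The shares of all distal regions were taken list by list, not pooled, and are given with each list below. For each of the 14 lists examined, families included, the share of all distal regions lay within the Wilson interval of the members.

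Of 48 genes for the Kit receptor and its cascade, 1 had a member (0.173% of members, 0.460% of all distal regions). It lay in an intron of CBL, whose product ubiquitinates activated Kit, 12 kb from the start (chr11:119089052-119089549) with 10 and 8 fragments, 11.7 kb from a constantly open region at ranks of 97.8 and 99.5 with PBS and 99.0 and 98.0 with SCF. MAPK feedback inhibitors had 1 of 25 (0.173% of members, 0.232% of all distal regions). It lay in an intron of RASA3, a RAS GTPase-activating protein, with 6 and 11 fragments. For the 40 immediate early genes, 0 of 578 members lay within 100 kb, which allows a share of up to 0.519%, and all distal regions gave 0.355%. The member whose nearest protein-coding gene was MYC lay 187 kb from it. Cell cycle and survival genes had 1 of 42 (0.173% of members, 0.340% of all distal regions). It lay near BCL2, an inhibitor of apoptosis, with 11 and 9 fragments. None of the 27 megakaryocyte, myeloid and mast cell genes had a member, against 0.162% of all distal regions.

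Erythroid transcription factors and globin regulators had 6 of 37 genes with a member (1.04% of members, 0.477 to 2.25, against 0.811% of all distal regions, 1.07% of distal constantly open regions and 0.342% to 1.13% of the other pairs). The GFI1B member, in an intron of this repressor gene, was the best ranked, with 17 and 16 fragments at ranks of 47.6 and 48.4. It lay 4.98 kb from a constantly open region whose ranks were 25.5 and 16.5 with PBS and 5.72 and 34.4 with SCF. LMO2, a bridging protein of the GATA1 and TAL1 complex, had a member 7.12 kb upstream with 10 fragments in both libraries. ZFPM1, which encodes the GATA1 partner FOG-1, had an intronic member with 35 and 39 fragments but fold enrichments of 2.78 and 3.29.

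HBS1L, next to the MYB enhancers, had an intronic member with 15 and 16 fragments and fold enrichments of 3.23 and 2.74, 3.40 kb from a constantly open region. The member nearest to LYL1, a TAL1 relative, lay in an intron of NFIX with 15 and 22 fragments. TCF4, an E protein gene that partners TAL1, had 9 fragments in both libraries.

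Genes of globin, heme, iron and the red cell membrane had 4 of 46 with a member (0.692%, against 0.464% of all distal regions and 0.161% to 0.688% of the other pairs). At ANK1, an ankyrin of the red cell membrane skeleton, an intronic member 1.89 kb from a constantly open region held 29 and 37 fragments, an AP-1 word 20 bp from the summit and a GATA word. RHAG, of the Rh complex, had 9 and 10 fragments at a member whose AP-1 word lay 4 bp from the summit. CA1, a carbonic anhydrase, had 25 and 22 fragments at a fold enrichment of 2.95 and 2.43, 0.989 kb from a constantly open region at its start site.

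Families collected by the start of their symbols gave like shares. Solute carriers had 8 members (1.38%, all distal regions 1.99%) and zinc finger genes 8 (1.38%, 1.24%). Cadherins had 3 (CDH6, CDHR1 and CDH26), at 0.519% (0.177 to 1.51) against 0.216%. Phosphodiesterases had 1, PDE3B (0.173%, all distal regions 0.216%). Protein tyrosine phosphatases had 0, against 0.274% of all distal regions.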

How the data were processed

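Transposed DNA of HUDEP-2 cells was sequenced paired-end, and the authors' methods place the reads in the ENCODE ATAC-seq pipeline. Bowtie2 and SAMtools stand in the submitters' processing notes, and the peak caller is not given in the sources used here. The 4 deposited sgControl lists, 1 per library, hold a score (not used), a fold enrichment ratio, and a −log10 p-value and −log10 q-value for each summit. Their headers name hg19, the methods hg38, and positions were read as hg19. Replicate numbers follow the labels. Inside the peak names, the PBS lists 1 and 2 carry the numbers 2 and 3, and the SCF lists 1 and 2, so by those names PBS list 1 would pair with SCF list 2. Lists held 29269 to 33616 peaks, with a highest q of 0.0497, and no reads or total counts were used. Sequencing depth is therefore unknown apart from the ratio of lowest backgrounds, each divided by the shortest peak width of its list.

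Peaks were merged on 24 chromosomes (minimum overlap 1 bp), with GENCODE release 44 mapped to GRCh37 and its genome. Pileups were solved as whole numbers from fold enrichment and p for peaks with −log10 p under 300. A Poisson p and a fold enrichment with 1 added to pileup and background were assumed. The p-value was matched (tolerance 0.0001 relative) in 100% of these peaks. Scripts used Python 3.11.15, numpy 2.4.6, pandas 2.3.3, SciPy 1.17.1, pysam 0.24.0 and matplotlib 3.10.9, and were tested on simulated data. Shares carry 95% Wilson intervals, and limits for a count of 0 use 3 counts. All intervals cover counting error only. Library values were compared by two-sided exact permutation. No adjusted p-values were needed, since no test ran across regions.

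The members and lists were chosen with earlier results of these data known. Named were the 12 members of highest and the 2 of lowest mean rank, those nearest to a gene of the 14 lists within 100 kb, the 5 closest to and 3 farthest from a constantly open region, genes with 3 or more members, the 6 best-ranked with AP-1 and GATA words or 2 AP-1 words, and the regions next to the 1 kb limit. Solute carrier and zinc finger members are given as counts. Some named members, markers, lists and sequences of this rule are not reported here. The alternatives were a stricter q, equal peak numbers, other distance and word windows, a stricter overlap, other ranks and neighbours, a replicate block and leaving out each library.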

Additional observations from a re-analysis of the deposited data

How the results depend on the processing

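With a −log10 q of at least 5 the number of members fell from 578 to 352, and with 1 library left out it ran from 1011 to 3829, since fewer libraries had to meet the rule. It stayed within 1.5 times for equal numbers of peaks (645), a start site limit of 500 bp (623) or 3000 bp (444), and SCF peaks that no PBS peak overlaps with a summit inside a peak of the other SCF library (504). The AP-1 share was 10.2% with a window of 50 bp and 34.8% with 250 bp, as the window's own length fixes, and 13.9% to 20.2% with 1 library left out; the other alternatives gave 19.3% to 23.9%. At equal numbers of peaks (29269 per library) the AP-1 share was 21.7% in 645 SCF-only regions and 6.90% in 667 PBS-only regions. The share within 10 kb of a constantly open region was 22.5% when those regions needed a mean rank of at least 50, and 27.5% to 35.0% with 1 library left out. The rank difference of the neighbours ran from −4.14 to 2.12 with 1 library left out, reversing to 0.580 without PBS replicate 2 and 2.12 without SCF replicate 1, and the cause was not tested; the other alternatives gave −2.49 to −0.875. The AP-1 difference between libraries ran from 2.32 to 2.64 percentage points with 1 library left out and from 1.5 to 2.95 over the other alternatives.

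With the replicate number as a block, the sign-flip p was 0.5 for the neighbours' rank (−1.55) and 0.5 for the AP-1 share of the libraries (2.48), the smallest that pairing 2 and 2 libraries allows. The labels do not say that a number marks a shared culture or day. Numbers inside the peak names pair PBS replicate 1 with SCF replicate 2 instead, so this block may not join matched libraries. With 2 libraries per treatment no test here could pass 0.05, and the shallow pileups limit every statement on which regions lack a peak.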
